A study of Homo sapiens with 4 samples.

Results

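YAP1, WWTR1 (the gene of TAZ), TEAD1 to TEAD4, CCN1, CCN2, AMOTL2 and LATS2 were followed as the coactivators, DNA-binding factors and target genes at the end of the Hippo pathway. The 10 genes were taken by symbol, all 10 were listed in the expression table, and they are 10 of its 16376 genes. RNA came from LASCPC-01, a neuroendocrine prostate cancer (NEPC) cell line generated with NMYC and activated AKT1, so every library carries these drivers and comes from the same line. PBS replicates 1 and 2 served as the control for fluoxetine replicates 1 and 2. Fluoxetine is an antidepressant that blocks serotonin reuptake. Titles of the samples gave day 3 for both groups and no dose. The study text gives a dose of fluoxetine and a shorter exposure. The letters PP stand in the titles of the fluoxetine libraries. The labels list separate samples without saying that they were separate cultures, so p-values cover the spread between these libraries, which may be technical.

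YAP and TAZ carry no DNA-binding domain and act in the nucleus by joining a TEAD factor on its DNA site. The kinase cassette of MST1 or MST2 with SAV1, followed by LATS1 or LATS2 with MOB1, phosphorylates YAP and TAZ, which are then held in the cytoplasm or degraded. CCN1, CCN2, AMOTL2 and LATS2 are classical target genes, and AMOTL2 and LATS2 feed back on YAP and TAZ as inhibitors. Neuroendocrine cancers commonly have little YAP and TAZ.

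The authors deposited FPKM, fragments per kilobase of gene scaled to the mapped fragments of the library, which allow levels of different genes to be compared per length. Reads were recovered from the FPKM, at a depth of 32873603 to 34831389 per library. Among neuroendocrine markers, NCAM1 had 44.3 to 52.0 FPKM and INSM1 21.7 to 24.2 FPKM. ENO2 had 2.07 to 3.10 FPKM and SYP 0.142 to 0.629 FPKM. CHGA, CHGB, NEUROD1 and SCG3 each had a mean under 0.1 FPKM. Over the genes with a mean of at least 0.1 FPKM, 12663 in all, limma on log2(FPKM + 0.1) called 30 genes at an adjusted p under 0.05, which is 0.237% of the genes tested, 27 of them lower (0.213%) and 3 higher (0.0237%) in fluoxetine. In bulk RNA, fewer cells of a kind and less RNA per cell cannot be told apart.

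The TEAD factors were well expressed in all 4 libraries, whereas YAP1 was low and WWTR1 had at most 19 recovered reads in a library. TEAD1 to TEAD4 together reached 62.9 and 64.1 FPKM with PBS and 61.5 and 62.1 FPKM with fluoxetine. YAP1 and WWTR1 together reached 0.411 and 0.527 FPKM with PBS and 0.313 and 0.446 FPKM with fluoxetine. The TEAD sum was thus 153-fold and 122-fold the coactivator sum in PBS replicates 1 and 2, and 197-fold and 139-fold in fluoxetine replicates 1 and 2. The ratios of the groups overlapped.

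YAP1 encodes the coactivator YAP and spans 102110461 to 102233423 of chromosome 11 (GRCh38, GENCODE 29, used for all locations). It had 0.368 and 0.432 FPKM with PBS and 0.283 and 0.427 FPKM with fluoxetine, from 75, 93, 61 and 92 reads. Fluoxetine replicate 2 stood between the PBS libraries, and fluoxetine replicate 1 was the lowest. The mean level of YAP1 was above that of 29.7% of the genes in the table. Its log2 fold change on the log2(FPKM + 0.1) scale was -0.15 (standard error, SE, 0.29, 95% interval -0.79 to 0.49, adjusted p = 0.897 from limma), an interval that holds changes in either direction. Without fluoxetine replicate 1 the log2 fold change was 0.08, so its sign rested on that library.

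WWTR1, on chromosome 3 from 149517235 to 149736714, had 0.0421 and 0.0946 FPKM with PBS and 0.0298 and 0.0199 FPKM with fluoxetine. These levels rest on 8 and 19 reads with PBS and on 6 and 4 reads with fluoxetine. Fluoxetine was lower in each library than either PBS value, but the mean of 0.0466 FPKM was under the minimum for testing. In a fit without that minimum, the log2 fold change was -0.41 (SE 0.19, 95% interval -0.99 to 0.16, adjusted p = 0.669 from limma). Every WWTR1 value was below the 0.1 FPKM added before the log, so the fitted change depends on what is added. With 0.01 FPKM added the log2 fold change was -1.10 (adjusted p = 0.650 from limma). With 1 FPKM added it was -0.06 (adjusted p = 0.679). The summed reads per depth in fluoxetine were 0.360 of those in PBS, with an exact Clopper-Pearson 95% interval of 0.155 to 0.767. Such intervals cover counting error only. Over genes with at least 20 reads, replicates differed by more than that. The ratio of chi-square to its degrees of freedom was 8.60 (PBS) and 10.5 (fluoxetine) over 12765 and 12646 genes. Whether the counts of a gene as low as WWTR1 vary beyond counting error was not tested. The interval of the fold change over replicates held 0, while the counting interval did not reach 1. WWTR1 and YAP1 share 795 and 628 exonic bases with antisense transcripts in GENCODE 29, WWTR1-AS1 and AP000942.2, and whether the counting used strand is not given in the sources used here.

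TEAD4, on chromosome 12 from 2959330 to 3040673, was the most abundant TEAD factor and the most abundant of the 10 genes. It had 33.7 and 31.3 FPKM with PBS and 34.1 and 32.3 FPKM with fluoxetine. The groups overlapped, and fluoxetine minus PBS was 0.03 on the log2 scale (SE 0.08, 95% interval -0.14 to 0.20, adjusted p = 0.929 from limma). Its sign turned with rescaling to TPM (-0.02), with the gene length trend removed (-0.02) and without PBS replicate 2 (-0.02) or fluoxetine replicate 1 (-0.01). TEAD4 made up 48.9% to 55.5% of the TEAD sum in the 4 libraries, and its mean level was above that of 87.2% of all genes in the table.

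TEAD3, on chromosome 6 from 35473597 to 35497076, had 12.7 and 15.4 FPKM with PBS and 13.6 and 13.9 FPKM with fluoxetine. Both fluoxetine values lay between the PBS values, and the log2 fold change was -0.02 (SE 0.10, 95% interval -0.24 to 0.19, adjusted p = 0.964). With median centring it was 0.004 and without PBS replicate 2 it was 0.12, so no direction can be given for TEAD3. The PBS libraries of TEAD3 lay farther apart than the means of the groups.

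TEAD1, on chromosome 11 from 12674591 to 12944483, had 14.0 and 14.2 FPKM with PBS and 11.4 and 13.5 FPKM with fluoxetine. The groups did not overlap, and fluoxetine replicate 1 was well below the other 3 libraries. The log2 fold change was -0.18 (SE 0.09, 95% interval -0.39 to 0.02, adjusted p = 0.603). TEAD1 was counted over 9417 bases, the longest of the 10 genes. Libraries differed in how values depended on gene length, with a correlation across 12576 genes between log2 length and the deviation from the gene's mean of -0.284 in fluoxetine replicate 1 and 0.188 in PBS replicate 2. After removal of this trend in each library, the log2 fold change of TEAD1 was -0.08, and without fluoxetine replicate 1 it was -0.06.

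TEAD2, on chromosome 19 from 49340595 to 49362457, was the least abundant TEAD factor. It had 2.50 and 3.21 FPKM with PBS and 2.39 and 2.36 FPKM with fluoxetine, and made up 3.96% and 5.004% of the TEAD sum with PBS and 3.88% and 3.81% with fluoxetine. The groups did not overlap, although PBS replicate 1 was close to the fluoxetine values. The log2 fold change of -0.24 (SE 0.15, 95% interval -0.56 to 0.08, adjusted p = 0.625) was -0.07 without PBS replicate 2. TEAD2 shares 319 of its 2980 annotated exonic bases with CD37 on the other strand.

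**Figure D1:**
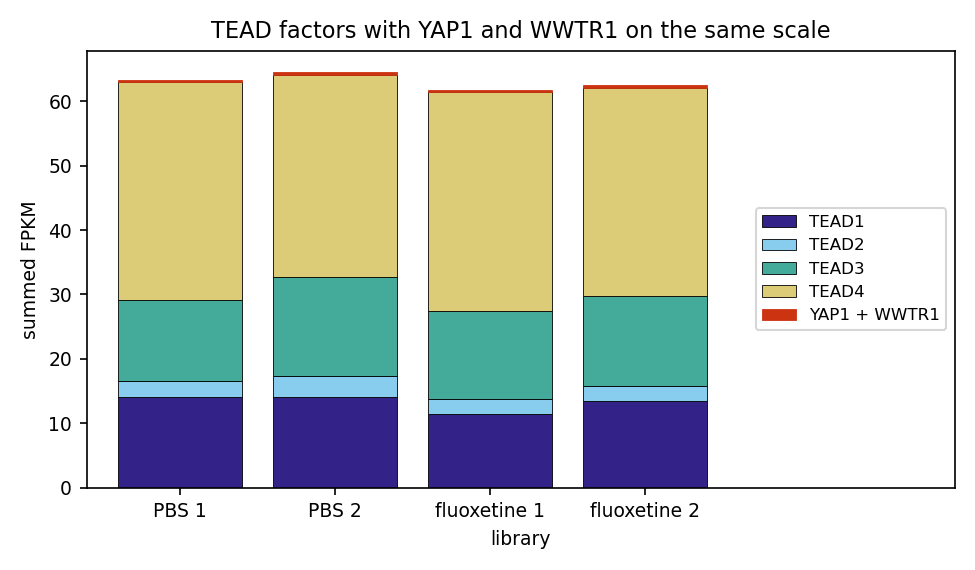
Summed FPKM of TEAD1 to TEAD4 stacked in each library, with YAP1 and WWTR1 together as a red band on top. TEAD4 fills 48.9% to 55.5% of the TEAD sum, and the red band is at most 0.527 FPKM.

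The 4 target genes were low, with 3.13 and 2.91 FPKM in sum with PBS and 2.24 and 2.45 FPKM with fluoxetine. CCN2, on chromosome 6 from 131948176 to 131951373, encodes a secreted matrix-associated protein (CTGF) and was the most abundant of them. It had 1.48 and 1.27 FPKM with PBS and 0.971 and 0.970 FPKM with fluoxetine, from 114, 103, 79 and 79 reads. The fluoxetine values were nearly equal, and each was lower than either PBS value. The fluoxetine mean was 70.6% of the PBS mean, and the log2 fold change was -0.46 (SE 0.18, 95% interval -0.85 to -0.06). CCN2 was the 1 gene of the 10 with an unadjusted p under 0.05 (0.0266 from limma), and its adjusted p over all genes tested was 0.538. Without each library in turn the log2 fold change of CCN2 ranged from -0.56 to -0.35. CCN2 shares 195 of 2339 exonic bases with the antisense transcript AL133346.1.

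CCN1, on chromosome 1 from 85580761 to 85583962, encodes the related protein CYR61. It had 0.788 and 0.657 FPKM with PBS and 0.441 and 0.756 FPKM with fluoxetine, from 59, 52, 35 and 60 reads. Fluoxetine replicate 1 was the lowest library, and fluoxetine replicate 2 stood between the PBS libraries. The log2 fold change was -0.27 (SE 0.26, 95% interval -0.84 to 0.31, adjusted p = 0.767), and it was 0.06 without fluoxetine replicate 1. A difference between the responses of CCN1 and CCN2 was not tested. CCN3, another member of the CCN family, had reads in PBS replicate 2 only, at 0.0234 FPKM.

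AMOTL2, on chromosome 3 from 134355874 to 134375479, encodes an angiomotin that binds YAP and keeps it out of the nucleus. It had 0.251 and 0.175 FPKM with PBS and 0.0979 and 0.149 FPKM with fluoxetine, from 46, 34, 19 and 29 reads. The groups did not overlap, with fluoxetine on the lower side. The summed reads per depth in fluoxetine were 0.583 of those in PBS, with a counting interval of 0.399 to 0.844, while the log2 fold change from the replicates was -0.49 (SE 0.38, 95% interval -1.32 to 0.35, adjusted p = 0.706). The fitted change of a gene this low depends on the pseudocount. The log2 fold change was -0.75 with 0.01 FPKM added (adjusted p = 0.711 from limma) and -0.11 with 1 FPKM added (adjusted p = 0.724).

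LATS2, on chromosome 13 from 20973032 to 21061547, encodes a kinase that inactivates YAP and TAZ. It had 0.609 and 0.813 FPKM with PBS and 0.730 and 0.575 FPKM with fluoxetine, from 56, 79, 71 and 56 reads. Each group held a high and a low library, and the groups overlapped. The log2 fold change was -0.10 (SE 0.24, 95% interval -0.63 to 0.42, adjusted p = 0.917), and it was 0.08 without PBS replicate 2 and 0.04 without fluoxetine replicate 2.

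Fibroblasts express CCN1 and CCN2 strongly, and the summed level of 6 fibroblast markers was 2.85 and 3.14 FPKM with PBS and 1.98 and 2.84 FPKM with fluoxetine. Of the 6, COL1A1 made up most of this sum, at 1.83 to 2.75 FPKM, and DCN had 0.0736 to 0.212 FPKM. The other 4 had a mean under 0.1 FPKM, with COL3A1 at 0 in PBS replicate 1. COL1A2 and PDGFRB had at most 0.0624 FPKM in any library. The part of such transcripts in the CCN2 values was not tested.

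The promoters of the target genes CCN2 and AMOTL2, whose fluoxetine libraries lay below the PBS libraries, are shown because the letters GGAATG, or CATTCC on the other strand, form the core of the element that TEAD factors bind. Each is the 250 bases before a RefSeq start site of GRCh38.p14, read 5′ to 3′ on the strand of the gene (minus), with these letters in capitals. CCN2 lies at chr6:131951373-131951622 and AMOTL2 at chr3:134374448-134374697.
CCN2: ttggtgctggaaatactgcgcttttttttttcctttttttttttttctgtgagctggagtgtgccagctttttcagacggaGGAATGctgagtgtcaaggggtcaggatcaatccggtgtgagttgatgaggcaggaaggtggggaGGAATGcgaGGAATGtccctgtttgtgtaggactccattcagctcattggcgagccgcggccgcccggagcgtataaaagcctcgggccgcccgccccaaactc
AMOTL2: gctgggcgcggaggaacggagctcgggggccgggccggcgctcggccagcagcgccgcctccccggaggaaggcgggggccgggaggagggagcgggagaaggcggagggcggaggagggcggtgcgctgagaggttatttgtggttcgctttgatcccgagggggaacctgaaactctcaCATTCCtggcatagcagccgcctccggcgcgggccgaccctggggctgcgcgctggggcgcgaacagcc
CCN2 held the letters 3 times, beginning 169, 104 and 95 bases before the start, and AMOTL2 held them once, 69 bases before the start. Of all 35116 RefSeq promoters of this length, 11.9% held the letters on either strand and 29, or 0.0826%, held them 3 times or more. YAP1 held them once, 162 bases before its start, in chr11:102110197-102110446. Of the 10 genes, 7 had a promoter in the table with 10 start sites in all, and 3 of these starts held the letters in the window. The second start of AMOTL2, both starts of WWTR1 and of TEAD2, and the starts of TEAD3 and LATS2 did not. CCN1, TEAD1 and TEAD4 had no entry. A match describes these letters and is not evidence of binding.

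In level, the 10 genes ordered as TEAD4, TEAD3, TEAD1, TEAD2, CCN2, LATS2, CCN1, YAP1, AMOTL2 and WWTR1. The neighbours TEAD3 and TEAD1 did not differ beyond the spread over libraries, since TEAD3 was the higher in 3 of 4, nor did LATS2 and CCN1, where LATS2 was the higher in 2 of 4. For every other pair of neighbours, all 4 libraries of the higher gene were above all 4 libraries of the lower.

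None of the 9 tested genes had an adjusted p under 0.05 from limma, beside 0.237% of all genes tested, and 1 of the 9, CCN2, had an unadjusted p under 0.05, as did 1078 of all 12663 genes tested. With limma voom on the recovered reads none of the 10 had an adjusted p under 0.05 either, with WWTR1 at a log2 fold change of -1.31 (adjusted p = 0.664) and TEAD1 at -0.19 (adjusted p = 0.415). In 4 of the 9, namely TEAD1, TEAD2, CCN2 and AMOTL2, the groups did not overlap and fluoxetine was lower, which held for 24.8% of the genes in the whole fit. In 0 of the 9 the groups did not overlap with fluoxetine higher, a pattern of 16.7% of the genes in the whole fit. The median log2 fold change of the 9 genes was -0.18, and that of all genes tested was -0.02. It ranged from -0.30 to -0.06 when each library was left out in turn, with -0.07 without PBS replicate 2, -0.06 without fluoxetine replicate 1 and -0.30 without fluoxetine replicate 2. With 2 libraries against 2, no gene taken alone can reach a p below 0.33 by exact permutation (two-sided).

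The other genes of the pathway came from 7 lists covering 105 further genes, of which 98 were in the table and 85 were tested. None had an adjusted p under 0.05 from limma, the lowest being 0.362 for AJUBA, and 11 of the 85 had an unadjusted p under 0.05, beside 1078 of all 12663 genes tested. Groups that did not overlap were found with fluoxetine lower in 39 of the 85 (45.9%, against 24.8% of all genes) and with fluoxetine higher in 8 (9.41%, against 16.7%). After removal of the gene length trend these counts were 25 (30.1%) and 11 (13.3%) of 83 genes, beside 2519 and 2446 of all 12576 genes with a length. The median length counted for the 85 genes was 5872 bases, and that of all genes tested 3850 bases.

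The list of the kinase cassette held 18 genes, the core genes apart from LATS2 and related kinases such as the MAP4K and TAOK families. All 18 were tested, and 17 had a mean of at least 1 FPKM. Of the core kinases, STK4 (MST1) had 5.51 to 6.64 FPKM, STK3 (MST2) 2.15 to 2.28 FPKM and LATS1 4.03 to 4.90 FPKM. The groups overlapped for LATS1 (log2 fold change 0.0005). STK3 (-0.07) and STK4 (-0.15) were lower with fluoxetine without overlap. STK38, a kinase of the same family as LATS1 and LATS2, led with 55.8 and 57.1 FPKM with PBS and 51.5 and 50.2 FPKM with fluoxetine. MOB1A, the cofactor of the LATS kinases, had 29.8 and 30.9 FPKM with PBS and 26.6 and 27.3 FPKM with fluoxetine. The fitted log2 fold change was -0.17 (adjusted p = 0.555 from limma). MAP4K4, which can also phosphorylate the LATS kinases, had 23.0 to 25.9 FPKM.

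Fluoxetine was lower with no overlap of the groups in 13 of the 18 genes of this list (72.2%, against 24.8% of all genes). It was higher without overlap in 0 of them (16.7% of all genes). The median log2 fold change of the 18 was -0.14. The 3 with the largest values were TNIK, TAOK1 and SAV1. TNIK had 4.10 and 4.23 FPKM with PBS and 3.12 and 3.39 FPKM with fluoxetine, which gave a log2 fold change of -0.35 (SE 0.12, adjusted p = 0.480). TAOK1, a kinase that activates MST1 and MST2, had a log2 fold change of -0.26 (adjusted p = 0.537), and SAV1, the scaffold of MST1 and MST2, one of -0.25 (adjusted p = 0.518). After removal of the length trend 9 were lower (50% of the list, against 20% of all genes) and 1 was higher (5.56%, against 19.4%). With this removal the median was -0.08.

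Among 28 upstream regulators and YAP-binding inhibitors, 27 were tested, and 23 had a mean of at least 1 FPKM. The 14-3-3 proteins YWHAQ and YWHAZ, which hold phosphorylated YAP in the cytoplasm, had 174 to 181 and 67.2 to 72.6 FPKM, and the polarity protein SCRIB had 58.1 to 63.9 FPKM. Without overlap of the groups, fluoxetine was lower in 8 of the 27 (29.6%, against 24.8% of all genes) and higher in 3 (11.1%, against 16.7%), and the median log2 fold change was -0.06. After removal of the length trend 4 were lower and 4 higher (14.8% each, against 20% and 19.4% of all genes). With this removal the median was 0.01. The median was -0.02 without PBS replicate 2, -0.005 without fluoxetine replicate 1, and -0.10 without PBS replicate 1 or without fluoxetine replicate 2. AJUBA, a LIM protein that inhibits the LATS kinases and is itself listed among YAP target genes, had 3.47 and 2.51 FPKM with PBS and 1.92 and 2.01 FPKM with fluoxetine. The fitted log2 fold change was -0.57 (SE 0.16, 95% interval -0.92 to -0.21, adjusted p = 0.362). AMOT, the angiomotin related to AMOTL2, had 2.37 and 2.29 FPKM with PBS and 1.67 and 1.79 FPKM with fluoxetine. The fitted log2 fold change was -0.41 (SE 0.14, adjusted p = 0.511). FAT1, a large cadherin, had a log2 fold change of -0.25 (adjusted p = 0.598), with fluoxetine replicate 1 at 7.37 FPKM and the other libraries at 9.94 to 10.4 FPKM.

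VGLL4, which competes with YAP for TEAD factors, had 39.5 and 39.4 FPKM with PBS and 35.8 and 37.2 FPKM with fluoxetine, so that its level per length was above that of TEAD4 in every library. The fitted change was -0.11 on the log2 scale (SE 0.07, adjusted p = 0.638). VGLL3 had 0.389 to 0.425 FPKM with PBS and 0.297 to 0.344 FPKM with fluoxetine (log2 fold change -0.27, adjusted p = 0.780). VGLL1 and VGLL2 were listed as well and had no entry in the expression table under their symbols.

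STRIPAK, the phosphatase complex that opposes MST1 and MST2, had 14 of its 15 genes at a mean of at least 1 FPKM. PPP2R1A had 52.5 to 58.8 FPKM, STRN4 42.0 to 45.0 FPKM and PPP2CA 40.2 to 42.5 FPKM. Without overlap of the groups, fluoxetine was lower in 6 of the 14 tested (42.9%, against 24.8% of all genes) and higher in 2 (14.3%, against 16.7%), with a median log2 fold change of -0.05. After removal of the length trend 5 were lower (35.7%, against 20% of all genes) and 3 higher (21.4%, against 19.4%). With this removal the median was -0.01. With each library left out in turn instead, the median ranged from -0.09 (without PBS replicate 1) to -0.04 (without PBS replicate 2). SIKE1, STRN and CTTNBP2NL, the 3 largest of these, had log2 fold changes of -0.26 (adjusted p = 0.483), -0.23 (adjusted p = 0.598) and -0.17 (adjusted p = 0.666).

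Of 26 other YAP and TAZ target genes, 24 were in the table, 16 were tested and 8 had a mean under 0.1 FPKM. The median level of the 24 was 0.494 FPKM, and that of all genes in the table was 4.13 FPKM. The 3 most abundant, GADD45A, BIRC5 and WWC1, had mean levels of 69.8, 45.1 and 17.9 FPKM, and GADD45A and BIRC5 are also controlled by DNA damage and the cell cycle. In all 3, fluoxetine was higher with no overlap of the groups, with log2 fold changes of 0.09, 0.18 and 0.05 and an adjusted p of 0.552 or more.

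The median log2 fold change of the 16 tested was -0.22, with fluoxetine lower in 7 (43.8%, against 24.8% of all genes) and higher in 4 (25%, against 16.7%) without overlap of the groups. With each library left out in turn this median ranged from -0.31 (without PBS replicate 1) to -0.13 (without PBS replicate 2). NUAK2, a kinase that promotes YAP activity, had 0.529 and 0.238 FPKM with PBS and 0.238 and 0.0901 FPKM with fluoxetine. The fitted log2 fold change was -0.86 (SE 0.41, adjusted p = 0.579). PBS replicate 2 and fluoxetine replicate 1 of NUAK2 held 29 reads each. NT5E, an ectonucleotidase, had 0.179 and 0.178 FPKM with PBS and 0.0807 and 0.0484 FPKM with fluoxetine. The fitted log2 fold change was -0.77 (SE 0.41, adjusted p = 0.613). AJUBA was the third by size. After removal of the length trend the median of the 16 was -0.14. Then 5 were lower (31.2%, against 20% of all genes) and 4 higher (25%, against 19.4%).

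SRF and its MRTF cofactors, which also drive CCN1 and CCN2, were listed with their target genes, 14 in all, of which 12 were tested. ACTB and ACTG1, the cytoplasmic actins, had mean levels of 1904 and 1894 FPKM, and FLNA, an actin crosslinker, 73.2 FPKM. The median log2 fold change of the 12 was -0.06, with 4 lower (33.3%, against 24.8% of all genes) and 1 higher (8.33%, against 16.7%) without overlap of the groups. With each library left out in turn the median ranged from -0.09 (without PBS replicate 2) to -0.05 (without fluoxetine replicate 1). After removal of the length trend, which left 10 of the 12 genes, the median was -0.03. Of these 10, 1 was lower and 1 higher (10% each, against 20% and 19.4% of all genes). The 1 gene that was higher before this removal was TAGLN, a smooth muscle actin-binding protein, which had 0.407 and 0.507 FPKM with PBS and 0.587 and 0.782 FPKM with fluoxetine. The fitted log2 fold change was 0.49 (SE 0.25, adjusted p = 0.604). MRTFB, a cofactor of SRF, had a log2 fold change of -0.26 (adjusted p = 0.552) and VCL, a focal adhesion protein, one of -0.09 (adjusted p = 0.724).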

How the data were processed

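RNA of LASCPC-01 cells, 2 PBS and 2 fluoxetine libraries, was grouped by the treatment labels, and replicate numbers came from the titles. The authors deposited FPKM per gene and library. The submitters' processing notes name GRCh38, fastp, HISAT2 and HTSeq without roles; annotation and versions are not given in the sources used here. The labels name a stranded TruSeq kit, the methods a VAHTS kit.

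Members and gene lists were chosen with earlier results of these data known. The methods name a model of read counts, and since the table holds FPKM, limma 3.58.1 in R 4.3.3 (lmFit, eBayes with a variance trend) was run on log2(FPKM + 0.1) where the mean over libraries reached 0.1 FPKM, p-values being adjusted by Benjamini-Hochberg over all genes tested and 95% intervals from the moderated standard error.

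Whole reads were solved from FPKM ratios between libraries within 0.004 of a whole number, with the depth shared by 99 genes of GENCODE 29 exon length, for 15993 of 16080 genes above 0. True reads can be multiples of those given. Both steps were tested on simulated data. Replicates had a Pearson r across genes of 0.993 for PBS and 0.994 for fluoxetine. Deviations from the group means correlated at 0.0351 between libraries of the same number, so numbers were not taken to pair them.

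Genes named were the 10 members and, per pathway list, genes called, the 3 with the highest mean FPKM and up to 3 with the largest log2 fold change among those whose groups did not overlap. Neuroendocrine markers were named, apart from an item that is not reported here. COL1A1, DCN, COL3A1, COL1A2, PDGFRB, STK3, STK4 and LATS1 were named after their values were seen. Results were recomputed under 16 alternatives, fewer for members that a setting left out (15 for YAP1, CCN1, AMOTL2 and LATS2, 14 for WWTR1). Among the 16 alternatives, removal of the gene length trend (lowess, span 0.3) was chosen after seeing the data. Python 3.11.15 (pandas 2.3.3, numpy 2.4.6, matplotlib 3.10.9, scipy 1.17.1) made tables and figures. Gene locations came from GENCODE 29 and promoters from RefSeq.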

Additional observations from a re-analysis of the deposited data

How the results depend on the processing

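Under all 16 alternatives, 0 of the members tested and 0 of the other pathway genes had an adjusted p under 0.05 from limma, beside 1 of 9 and 11 of 85 genes at an unadjusted p under 0.05 in the fit reported, where 1078 of all 12663 genes had one. The count over all genes, 30 in the fit reported, was 0 without the filter on low values (1175 genes at an unadjusted p under 0.05), 0 with eBayes without the trend (933 genes), 16 with quantile normalization, 51 with voom on recovered reads and 64 with the replicate block, and 2 to 12 with each library left out in turn. The replicate block, for libraries that share only a number, changed no call of a member. The median log2 fold change of the members tested ranged from -0.303 to -0.0644 with a library left out and moved by less than its spread of 0.103 between replicates under the other settings. Signs turned for TEAD4 with rescaling to TPM (-0.0175) and with the gene length trend removed (-0.0190), and for TEAD3 with median centring (0.00372). With 1 library left out, ranges crossed 0 for YAP1 (-0.382 to 0.0768), CCN1 (-0.598 to 0.0628), LATS2 (-0.287 to 0.0773), TEAD3 (-0.161 to 0.115) and TEAD4 (-0.0235 to 0.0840), and not for CCN2, AMOTL2, TEAD1, TEAD2 or WWTR1. The cause of these shifts was not tested. Rescaling to TPM put the median of all genes at -0.07 in place of -0.02. YAP1, WWTR1 and the target genes held at most 114 recovered reads in any library, of which true reads can be multiples. Low counts limit what could be detected for them. No result met the criteria for a closer look.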
